A study of Mus musculus with 4 samples.

Results

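Insulin-like growth factor 1 (IGF1), its receptor and the IGF binding proteins were examined as 9 genes (Igf1, Igf1r and Igfbp1 to Igfbp7) of the 55421 genes counted in whole uteri. They were chosen by name and matched to the gene identifiers of the deposited counts through the GRCm38 annotation. RNA sequencing was performed on uteri of 2 pregnant WT mice (strain C57BL/6J) and 2 pregnant Qa-2- mice (strain B6.Cg-H2b3/FlaCmwJ, also called B6.K1) at E18.5, each after mating within its own strain and with 1 library per mouse. B6.K1 arose spontaneously while congenic strains of the H2 region were crossed, and carries no engineered deletion. Qa-2 is a non-classical MHC class I molecule, which the study used as the murine counterpart of human HLA-G to ask what its absence does in pregnancy. The strains were bought from different suppliers, so that Qa-2, the remaining strain background and the colony of origin cannot be told apart in this comparison. Each library was made from a small portion of powdered frozen uterus.

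IGF1 is a secreted growth factor that signals through a tyrosine kinase receptor encoded by Igf1r, and from there through insulin receptor substrates to the AKT pathway. In the uterus IGF1 is made mainly by stroma and muscle and is well known as an estrogen-responsive factor. IGF binding proteins are secreted as well, hold the IGFs away from the receptor or carry them to it, and are themselves cut by specific proteases, so that the supply of free IGF depends on all of them. Expression of the mRNAs says nothing on protein, binding or cleavage.

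Library totals lay between 33286390 and 41041299 read pairs counted on genes, and 3 counts, taken as the floor of counting, stood for 0.0731 to 0.0901 CPM, the unit of counts scaled to the total of each library. H2-Q6 and H2-Q7, which encode Qa-2, had 1192 to 6318 counts in the WT libraries and 2 to 4 counts in the Qa-2- libraries, so both labels were borne out. Samples differed in tissue content as well. All markers of smooth muscle, stromal fibroblasts, epithelium and endothelium were detected in every library, and of the decidual stroma list Prl3c1 was at 0 throughout. Yolk sac and hepatocyte markers summed to 598.5 CPM in Qa-2- replicate 1 and to 10.3 to 57.6 CPM in the other libraries, and trophoblast markers summed to 19.2 CPM in WT replicate 2 and to 0.18 to 3.61 CPM elsewhere, with Prl3d1, Gcm1 and Ctsq at 0 in all libraries. With 2 mice per group, an exact permutation test of 1 value cannot go below 0.33, and all p-values of single genes come from a model across all genes.

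Of the 9 genes, 8 passed the expression filter of at least 1 CPM in at least 2 samples, and only Igfbp1 did not. None of the 8 reached an adjusted p under 0.05 (edgeR's quasi-likelihood test, Benjamini-Hochberg adjustment over 14492 genes), where 0% of all genes tested did. At an unadjusted p under 0.05, Igfbp2, Igfbp3 and Igfbp6 were higher in WT uteri, in a direction where 8.09% of all genes reached that level, and Igf1r was higher in Qa-2- uteri, where 7.09% did. DESeq2, used as an alternative, gave Igfbp2, Igfbp3 and Igfbp6 adjusted p-values of 2.5e-05, 2.1e-11 and 0.014, and called 2.79% of all genes in favour of WT and 2.04% in favour of Qa-2- uteri. In CPM on total counts, both WT libraries lay above both Qa-2- libraries for 3 of the 8 genes (18.7% of all genes tested), and both Qa-2- libraries lay above both WT libraries for 3 of them, namely Igf1, Igf1r and Igfbp5 (32% of all genes). After TMM scaling these shares of all genes were 25.4% and 24.5%, and Igfbp7 joined the genes without overlap that were higher in WT. The median log2 fold change (WT over Qa-2-) of the 8 genes was 0.13, and that of all genes tested was 0.01. The plot of all members by library shows that Igfbp2 was both the most variable and, in WT uteri, the most abundant of them by CPM.

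**Figure D1:**
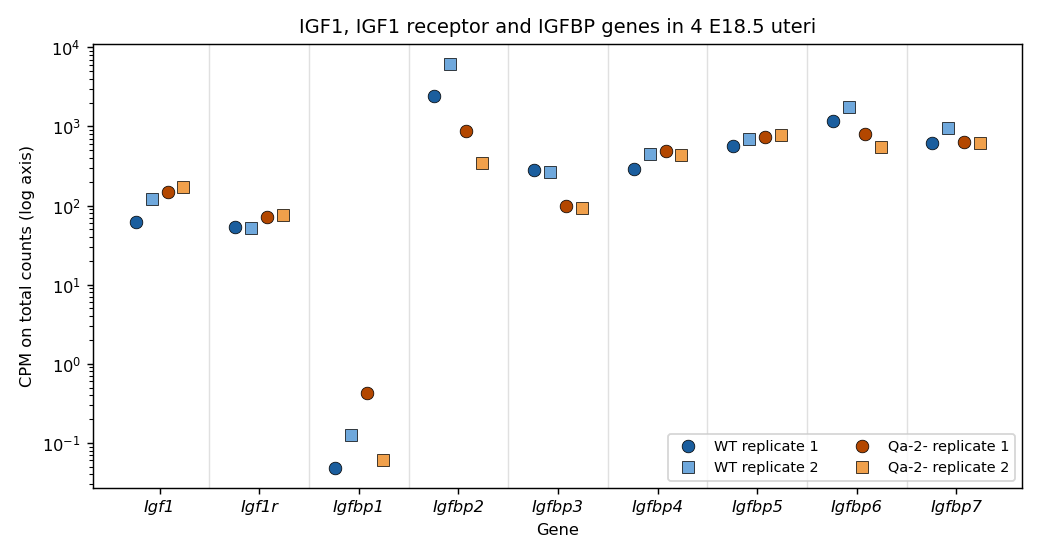
Expression of Igf1, Igf1r and Igfbp1 to Igfbp7 in each of the 4 uteri (x axis, gene; y axis, CPM on total counts, log axis). Each symbol is 1 library. Blue symbols (WT) lie above orange symbols (Qa-2-) for Igfbp2, Igfbp3 and Igfbp6 and below them for Igf1, Igf1r and Igfbp5, while Igfbp1 lies below 1 CPM in every library.

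Igf1, the gene of the ligand (ENSMUSG00000020053, chromosome 10 from 87858265 to 87937042 of GRCm38, plus strand), was measured at 62.5 and 119.9 CPM in WT replicates 1 and 2 and at 148 and 170.4 CPM in Qa-2- replicates 1 and 2. Both Qa-2- libraries lay above both WT libraries, and WT replicate 1 was the lowest by a wide margin. WT over Qa-2- gave a log2 fold change of -0.70 with a standard error (SE) of 0.34 and a 95% confidence interval from -1.57 to 0.17 (edgeR's quasi-likelihood test, adjusted p = 0.39). Its size depended on the WT libraries, as it was -0.32 without WT replicate 1 and -1.27 without WT replicate 2. With WT replicate 1 and Qa-2- replicate 2 alone, the libraries lowest in trophoblast markers, it was -1.34. An antisense gene, Igf1os, overlaps Igf1 and was at 2 counts in WT replicate 1 and at 0 elsewhere. Counting used the strand, so that reads of such a partner are kept apart. The 250 bases before the RefSeq transcription start of Igf1 (GRCm38.p6, chr10:87860861-87861110, plus strand) are shown because Igf1 is the ligand to which all binding proteins relate. Capitals in this and the following promoters mark matches on either strand to 7 motifs. These were the TATA box as TATAAA, the GC box of SP family factors as GGGCGG, the box bound by NF-Y as CCAAT, the core of the hypoxia response element in its form with a leading A as ACGTG and in its form with a leading G as GCGTG, the full palindrome of the estrogen response element and the CArG box.
Igf1: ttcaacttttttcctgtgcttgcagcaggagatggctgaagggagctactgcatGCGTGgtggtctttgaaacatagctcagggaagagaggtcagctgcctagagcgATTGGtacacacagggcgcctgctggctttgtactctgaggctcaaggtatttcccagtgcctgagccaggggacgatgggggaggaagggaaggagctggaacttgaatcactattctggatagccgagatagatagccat

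In that window there was 1 CCAAT match, 1 GCGTG match and 1 core of the estrogen response element (GGTCA, counted but left in lower case). Among the windows of the same length before 32851 RefSeq starts, 33.8%, 28.2% and 35.2% held these letters, so that each of them is common. The RefSeq start used here lies downstream of the first base of the gene in the annotation of the counts, and Igf1 is known to start at more than one exon. Such matches describe letters and are no evidence of binding.

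Igf1r, the receptor gene (ENSMUSG00000005533, chromosome 7 from 67952827 to 68233668, plus strand), had 53.3 and 51.3 CPM in WT and 72.4 and 76.8 CPM in Qa-2- uteri. Here the libraries of each genotype were close together and the groups did not overlap. Its log2 fold change was -0.42 (SE 0.14, 95% confidence interval -0.76 to -0.07, unadjusted p = 0.026, edgeR adjusted p = 0.29), and it stayed between -0.46 and -0.40 when any 1 library was left out. Expressed per kb of exon, the ratio of Igf1 to Igf1r was 1.99 and 3.96 in WT and 3.46 and 3.76 in Qa-2- uteri. WT replicate 2 was the highest of the 4, so the genotypes overlapped in this ratio (exact permutation test, two-sided p = 1.0, n = 2 per group).

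Igfbp2 was the binding protein gene with the largest difference. It encodes a binding protein with affinity for IGF1 and IGF2 that is abundant in fetal and reproductive tissues. The gene (ENSMUSG00000039323) lies on chromosome 1 from 72824503 to 72852474 on the plus strand. It reached 2434 and 6119.5 CPM in WT replicates 1 and 2, against 864 and 343 CPM in Qa-2- replicates 1 and 2. The lower WT library was still above the higher Qa-2- library, although the replicates of each genotype differed by more than 2-fold. On the log2 scale the difference was 2.92 (SE 0.73, 95% confidence interval 1.06 to 4.78, unadjusted p = 0.0097, edgeR adjusted p = 0.26). It was 2.08 without WT replicate 2 and 3.77 without Qa-2- replicate 1, and positive whichever library was left out. WT replicate 1 against Qa-2- replicate 2 alone gave 2.93. The promoter of the first RefSeq start (GRCm38.p6, chr1:72824230-72824479, plus strand) is shown for this gene as the member with the largest difference.
Igfbp2: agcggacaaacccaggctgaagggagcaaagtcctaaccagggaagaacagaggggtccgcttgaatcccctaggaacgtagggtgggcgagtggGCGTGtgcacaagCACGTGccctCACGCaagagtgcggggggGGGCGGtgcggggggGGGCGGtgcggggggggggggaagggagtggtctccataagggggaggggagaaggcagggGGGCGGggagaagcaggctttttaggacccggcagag

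With 67.2% G and C it was richer in these bases than the median of all windows, 52.4%. It held 3 GC boxes (32.7% of all windows held at least 1), 2 GCGTG matches and 2 ACGTG matches (16.6% of all windows held at least 1). Both ACGTG matches are the same letters CACGTG read on the opposite strands. RefSeq lists a further Igfbp2 start downstream, whose window held only a GGTCA core.

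Igfbp3 encodes the main carrier of IGFs in serum, which also acts locally. It lies on chromosome 11 from 7206086 to 7213923 on the minus strand (ENSMUSG00000020427). WT replicates 1 and 2 gave 279 and 264 CPM, and Qa-2- replicates 1 and 2 gave 97.3 and 93.0 CPM. Of all members it had the smallest spread between mice of one genotype relative to the distance between genotypes. The log2 fold change was 1.61 (SE 0.18, 95% confidence interval 1.16 to 2.06, unadjusted p = 2.3e-04, edgeR adjusted p = 0.23). Leaving out any 1 library kept it between 1.55 and 1.66, and WT replicate 1 against Qa-2- replicate 2 alone gave 1.69. Without an expression filter, where 0.216% of 28242 genes were called, edgeR gave Igfbp3 an adjusted p of 0.026. Its promoter (GRCm38.p6, chr11:7213924-7214173, minus strand) is shown as that of the member with the smallest p.
Igfbp3: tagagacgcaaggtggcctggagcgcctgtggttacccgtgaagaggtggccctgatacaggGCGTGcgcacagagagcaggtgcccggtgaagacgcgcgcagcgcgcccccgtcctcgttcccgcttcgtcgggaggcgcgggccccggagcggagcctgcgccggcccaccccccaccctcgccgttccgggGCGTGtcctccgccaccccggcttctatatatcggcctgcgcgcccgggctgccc

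G and C made up 73.2% of this window. Its only matches were 2 GCGTG cores, at 188 and 55 bases before the start. No TATAAA was found, while 12.4% of all windows held one. The search took these letters only, and the variant TATATAT near the end of the Igfbp3 window was not counted.

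Igfbp6, which encodes a binding protein that prefers IGF2 over IGF1, lies on chromosome 15 from 102144362 to 102149511 on the plus strand. Its level was 1179.6 and 1739 CPM in WT and 811 and 557 CPM in Qa-2- uteri. The groups did not overlap, and WT replicate 2 was the highest and Qa-2- replicate 2 the lowest library, as for Igfbp2. The log2 fold change was 1.19 (SE 0.37, 95% confidence interval 0.24 to 2.13, unadjusted p = 0.023, edgeR adjusted p = 0.29), with 0.86 to 1.51 when 1 library was left out and 1.19 for WT replicate 1 against Qa-2- replicate 2 alone. The promoter of Igfbp6 (GRCm38.p6, chr15:102143936-102144185, plus strand) is given for contrast with the former pair, as it holds fewer G and C than either. Its share of G and C is close to the median of all windows, 52.4%.
Igfbp6: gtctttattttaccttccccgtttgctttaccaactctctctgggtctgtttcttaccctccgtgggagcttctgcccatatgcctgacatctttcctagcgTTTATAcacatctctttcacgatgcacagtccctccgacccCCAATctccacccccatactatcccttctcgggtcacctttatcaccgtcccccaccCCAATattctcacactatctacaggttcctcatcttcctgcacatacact

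This window had 49.6% G and C and held 1 TATAAA match, 2 CCAAT matches and 1 GGTCA core, but neither a GC box nor a GCGTG or ACGTG core. The TATAAA match was read on the opposite strand and lay 148 bases before the start. No searched motif was thus found in the windows of all 3 binding protein genes that were higher in WT at the unadjusted level. The Igfbp6 window ends at base 102144185, while the gene starts at base 102144362 in the annotation of the counts. The bases between them were not searched. None of the members' windows held a full estrogen response element (0.0639% of all windows did) or a CArG box, the serum response factor motif of muscle genes (1.47% did).

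For the remaining binding proteins the 95% confidence intervals included 0. Igfbp4, whose product is cut by the protease PAPP-A, had 288 and 449.8 CPM in WT and 494 and 432 CPM in Qa-2- uteri. WT replicate 1 was low and the other libraries were alike, so the groups overlapped. Its log2 fold change was -0.23 (SE 0.30, edgeR adjusted p = 0.74), was 0.04 without WT replicate 1 and was -0.61 without WT replicate 2. Igfbp5, which binds to extracellular matrix and is expressed in muscle and stroma, had 567 and 684 CPM in WT and 734 and 780.3 CPM in Qa-2- uteri. The libraries did not overlap, but the step between the nearest ones was smaller than the distance between both WT mice (log2 fold change -0.18, SE 0.25, 95% confidence interval -0.81 to 0.45, edgeR adjusted p = 0.76). It was -0.06 without WT replicate 1 and -0.34 without WT replicate 2. Igfbp7, a relative with low affinity for IGFs that is abundant in blood vessels, had 619.6 and 966 CPM in WT and 639 and 621 CPM in Qa-2- uteri. Only WT replicate 2 stood out, and the log2 fold change of 0.43 (SE 0.31, edgeR adjusted p = 0.54) was 0.05 without it and 0.70 without WT replicate 1. Polr2b lies antisense to Igfbp7 and had 1677 to 1782 counts in the 4 libraries.

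Igfbp1, a product of liver and, in humans, of the decidua, was close to the floor. It had 2 and 5 counts in WT and 15 and 2 counts in Qa-2- uteri, which is 0.05 and 0.13 CPM in WT and 0.43 and 0.06 CPM in Qa-2-. The highest count was in Qa-2- replicate 1, the library with the highest sum of yolk sac and hepatocyte markers, and the part of these markers in it was not tested. At such counts no fold change was computed.

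Some members of the family are neighbours in the genome. Igfbp2 and Igfbp5 lie tail to tail on chromosome 1 on opposite strands with 5457 bp between them. Per kb of exon, the ratio of Igfbp2 to Igfbp5 was 14.0 and 29.1 in WT and 3.83 and 1.43 in Qa-2- uteri. Igfbp1 and Igfbp3 lie tail to tail on chromosome 11 with 3539 bp between them, and of this pair 1 was near the floor while the other was measured at 93.0 CPM or more. All ratios of Igfbp3 to Igfbp5 in WT (0.945 and 0.740) were above those in Qa-2- uteri (0.254 and 0.229), which states the difference without use of library size. For either ratio the exact permutation test gave a two-sided p of 0.33, the smallest it can give with n = 2 per group.

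To compare levels between genes, CPM were divided by the exon length of each gene. On that scale Igfbp2 was the first of the 9 members in both WT uteri, with 1318 and 3313 CPM per kb, and ranked 24 and 7 among all genes. In Qa-2- uteri it was the third member, with 468 and 185 CPM per kb, and ranked 66 and 222 among all genes. Igfbp6 came second in WT (1061 and 1564 CPM per kb) and had 729.7 and 501 CPM per kb in Qa-2- uteri. Igfbp7 followed in WT with 513 and 799 CPM per kb, and in Qa-2- uteri it had 529 and 514 CPM per kb, close to Igfbp6 in replicate 2 and below it in replicate 1. Igfbp5, Igfbp4 and Igfbp3 were lower, between 29.7 and 129.9 CPM per kb. Igfbp5 ranked 4 in every library, while Igfbp3 and Igfbp4 changed places between the WT mice, so that their order in WT did not exceed the spread. Igf1 (6.31 to 17.2 CPM per kb) and Igf1r (3.05 to 4.57 CPM per kb) came seventh and eighth in all libraries, below each of the 6 binding protein genes that passed the filter. Exon length is that of all annotated exons together and can exceed the length of single transcripts, which lowers the level of such genes.

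All binding protein genes together gave 3140 and 5976 CPM per kb in WT and 1992 and 1458 CPM per kb in Qa-2- uteri. Igfbp2 made up 42.0% and 55.4% of this sum in WT and 23.5% and 12.7% in Qa-2- uteri, which is 48.7% ± 9.53 against 18.1% ± 7.61 (SD, n = 2 each). The shares of Igfbp7, Igfbp5 and Igfbp4 were lower in WT, with means of 14.8%, 2.46% and 1.89% in WT and of 30.9%, 7.52% and 6.16% in Qa-2- uteri. These are shares of a sum that holds Igfbp2, and the level of Igfbp7 itself overlapped between genotypes in CPM per kb. The share of Igfbp6 was 33.8% and 26.2% in WT and 36.6% and 34.4% in Qa-2- uteri, which is the same order with a smaller step. Without Igfbp2, the sum was still higher in both WT uteri (1822 and 2663 CPM per kb) than in both Qa-2- uteri (1524 and 1272 CPM per kb). These sums are shown as stacked bars by library.

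**Figure D2:**
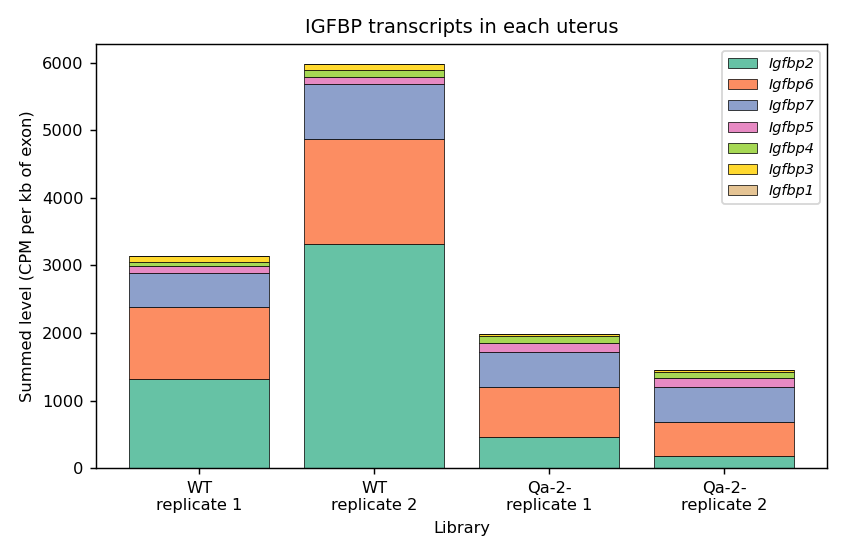
Summed level of the 7 IGF binding protein genes in each uterus (x axis, library; y axis, CPM per kb of exon), with 1 colour per gene. The Igfbp2 segment is 1318 and 3313 CPM per kb in WT and 468 and 185 CPM per kb in Qa-2- uteri, while the Igfbp7 segment lies between 513 and 799 CPM per kb in all bars.

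The relation of binding proteins to ligand was expressed as the sum of all Igfbp genes divided by Igf1, both per kb. It was 498 and 494 in WT and 133 and 84.7 in Qa-2- uteri, or 496 ± 2.704 against 109 ± 34.5 (SD, n = 2 each). Both the sum and Igf1 were higher in WT replicate 2 than in WT replicate 1, by nearly the same factor, so that the WT mice were almost equal in this ratio. Both WT values lay above both Qa-2- values (exact permutation test, two-sided p = 0.33, the smallest possible). Without Igfbp2 the ratio was 289 and 220.0 in WT and 102 and 74.0 in Qa-2- uteri. In CPM without length correction, its means were 85.6 and 20.6. It is a ratio of mRNA levels and gives no amount of free IGF1.

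Further genes of the IGF pathway were summarized in 8 lists with 61 genes, of which 51 passed the filter. None had an adjusted p under 0.05 with edgeR, against 0% of all genes. At an unadjusted p under 0.05, 6 had a positive and 6 a negative log2 fold change, at a level that 8.09% and 7.09% of all genes reached. DESeq2 called 3 and 2 of them, and 2.79% and 2.04% of all genes. Their median log2 fold change was -0.06. In the plot of fold changes the widest spread is seen among the proteases that cut IGF binding proteins and their inhibitors.

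**Figure D3:**
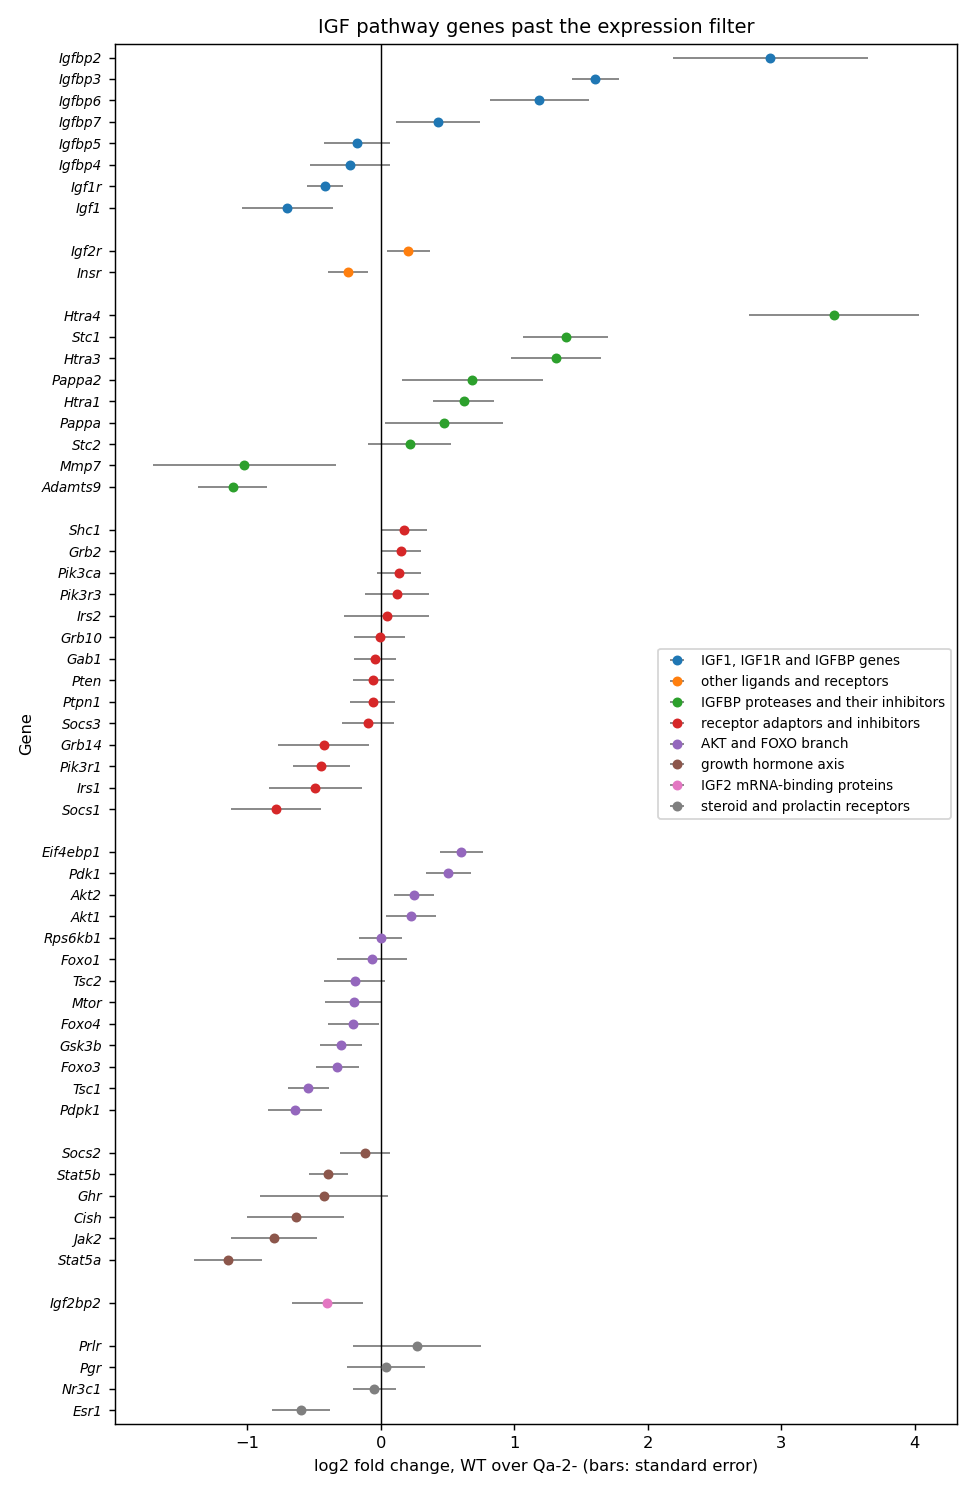
Log2 fold change, as WT over Qa-2- (x axis; points, edgeR estimate; bars, standard error) for the 8 members and 49 of the other IGF pathway genes that passed the expression filter (y axis, genes grouped by list). Htra4 (3.39) and Igfbp2 (2.92) lie farthest to the right, and Stat5a (-1.14) and Adamts9 (-1.11) farthest to the left.

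Of the other ligands and receptors, Igf2, the fetal growth factor, named after its values were seen, had 11 and 6 counts in WT and 24 and 16 counts in Qa-2- uteri, at most 0.69 CPM, and Ins1 was at 0 in all libraries. On these counts Igf1 was therefore the only IGF or insulin ligand past the filter. Overlapping genes were looked up for the members only, so reads shared between Igf2 and another gene were not examined. The receptors were close between genotypes. Igf2r, which takes up IGF2 for degradation, had 142 and 141 CPM in WT and 133 and 129 CPM in Qa-2- uteri (log2 fold change 0.21, SE 0.16). Insr, the insulin receptor gene, gave -0.24 with an SE of 0.15. Igfals and Igfbpl1, a carrier of serum complexes and a relative of the binding proteins, did not pass the filter.

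Among the proteases and their inhibitors, 9 of 10 genes passed the filter, with 4 higher in WT uteri and 1 in Qa-2- uteri at an unadjusted p under 0.05, beside 8.09% and 7.09% of all genes. Htra4, a secreted serine protease gene, had 6.58 and 13.9 CPM in WT and 1.49 and 0.57 CPM in Qa-2- uteri. Both WT libraries were above both Qa-2- libraries (log2 fold change 3.39, SE 0.64, edgeR adjusted p = 0.25, and 0.038 without a filter). Stc1, whose product inhibits PAPP-A, had 14.1 and 9.26 CPM in WT against 5.38 and 4.12 CPM in Qa-2- uteri, also without overlap. The related Htra3 and Htra1, named after their values were seen, had log2 fold changes of 1.31 (SE 0.34) and 0.62 (SE 0.23). In the opposite direction, Adamts9, a secreted metalloprotease gene, had 102 and 63.5 CPM in WT and 183 and 198 CPM in Qa-2- uteri (log2 fold change -1.11, SE 0.26). Mmp7 had the next lowest estimate (-1.02), but with an SE of 0.68 and with Qa-2- replicate 2 alone at 763 CPM. All endothelial and most smooth muscle markers were also higher in both WT libraries, and most epithelial markers in both Qa-2- libraries. The part of tissue content in the values of this list was not tested.

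Downstream of the receptor, none of the 14 adaptors and inhibitors reached an unadjusted p under 0.05, and their median log2 fold change was -0.05. Their extremes were Shc1 and Grb2 (0.17 and 0.15) and Socs1 and Irs1 (-0.79 and -0.49). Irs1, the main substrate of the receptor, was measured at 19.1 and 32.8 CPM in WT and at 46.5 and 31.4 CPM in Qa-2- uteri, which overlapped. In the AKT and FOXO branch 2 of 14 genes favoured WT and 2 favoured Qa-2- uteri at that level, beside 8.09% and 7.09% of all genes, which is no result about this branch. Eif4ebp1, a repressor of translation under mTOR control, had a log2 fold change of 0.60 (SE 0.16). Pdpk1, which encodes the kinase that activates AKT, and Tsc1, a brake on mTOR, had values of -0.65 (SE 0.20) and -0.54 (SE 0.15). The other gene higher in WT was Pdk1, named after its values were seen, which in the mouse encodes a pyruvate dehydrogenase kinase (0.51, SE 0.17).

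Growth hormone drives Igf1 in liver and other tissues through JAK2 and STAT5. Of the 6 genes of this axis, 5 had both Qa-2- values above both WT values in CPM on total counts, where 32% of all genes did, and 3 after TMM scaling, where 24.5% did. Socs2 and Cish were the genes that lost their separation on the latter scale. The median log2 fold change of the list was -0.53, that of all genes 0.01. Stat5a had 21.7 and 20.3 CPM in WT and 37.7 and 61.7 CPM in Qa-2- uteri (-1.14, SE 0.26, edgeR adjusted p = 0.25). Jak2 had 207 and 118 CPM in WT and 259 and 344 CPM in Qa-2- uteri (-0.80, SE 0.32). Stat5b (-0.39, SE 0.14) reached an unadjusted p of 0.0402, whereas Socs2, a target of STAT5, had -0.12 with an SE of 0.19. Epithelial markers were also higher in Qa-2- uteri, with 6 of 7 markers above both WT libraries and sums of 3936 and 3882 CPM against 2768 and 1660.1 CPM in WT. Their part in the values of this axis was not tested. The growth hormone receptor gene Ghr, named outside the rule after its values were seen, overlapped between genotypes.

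Of the steroid and prolactin receptors, Esr1, through which estrogen acts on uterine Igf1, had 219 and 261 CPM in WT and 355 and 423 CPM in Qa-2- uteri. The groups did not overlap, in the same direction as Igf1 (log2 fold change -0.60, SE 0.22, edgeR adjusted p = 0.31). Pgr (0.04, SE 0.29) and Prlr (0.27, SE 0.48) overlapped between genotypes. Igf2bp2, the only gene of the IGF2 mRNA-binding proteins past the filter, had -0.40 with an SE of 0.27.

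Levels in whole uterus mix cell types, and fewer cells of a type cannot be told apart from less RNA per cell. Markers of cell types that could carry the members were therefore summed per library and are given beside them in the plot of members and marker lists. Among all genes tested, 18.7% had both WT libraries above both Qa-2- libraries in CPM on total counts, and 32% had the reverse. After TMM scaling these shares were 25.4% and 24.5%. The 7 smooth muscle markers summed to 26158 and 42583 CPM in WT and 24094 and 13367 CPM in Qa-2- uteri, and 5 of them were higher in both WT libraries. All 6 endothelial markers were higher in both WT libraries, with sums of 1093 and 939 CPM against 506 and 504 CPM. Epithelial markers stood the other way, with 6 of 7 higher in both Qa-2- libraries and sums of 2768 and 1660.1 CPM in WT against 3936 and 3882 CPM in Qa-2- uteri. Stromal fibroblast markers were divided, as 2 of 6 favoured WT and 1, Pdgfra, favoured Qa-2- uteri, and their sums of 15446 to 27229 CPM in WT and 16634 to 30644 CPM in Qa-2- overlapped. Decidual stroma markers summed to 624 and 469.6 CPM in WT and 439 and 333 CPM in Qa-2- uteri, with 2 of 7 in favour of WT and 1 in favour of Qa-2-, which overlapped after TMM scaling. Macrophage markers (4 of 6 higher in WT) overlapped in their sum, with 535 and 793 CPM against 583 and 396 CPM. Mesothelial markers, of which 4 of 5 were higher in WT, summed to 125 and 129.9 CPM in WT and 105 and 61.0 CPM in Qa-2- uteri, but the sum rested mostly on Wt1 and Msln and the median log2 fold change of the list was 3.42. Among them, Upk3b had 23.2 and 16.4 CPM in WT and 2.15 and 1.77 CPM in Qa-2- uteri. Lrrn4 had 4.73 and 2.23 CPM in WT and 0.26 and 0.15 CPM in Qa-2- uteri, and Nkain4 4.14 and 2.51 CPM against 0.11 and 0.21 CPM. None of the 3 overlapped between genotypes. Their part in the values of the members was not tested.

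**Figure D4:**
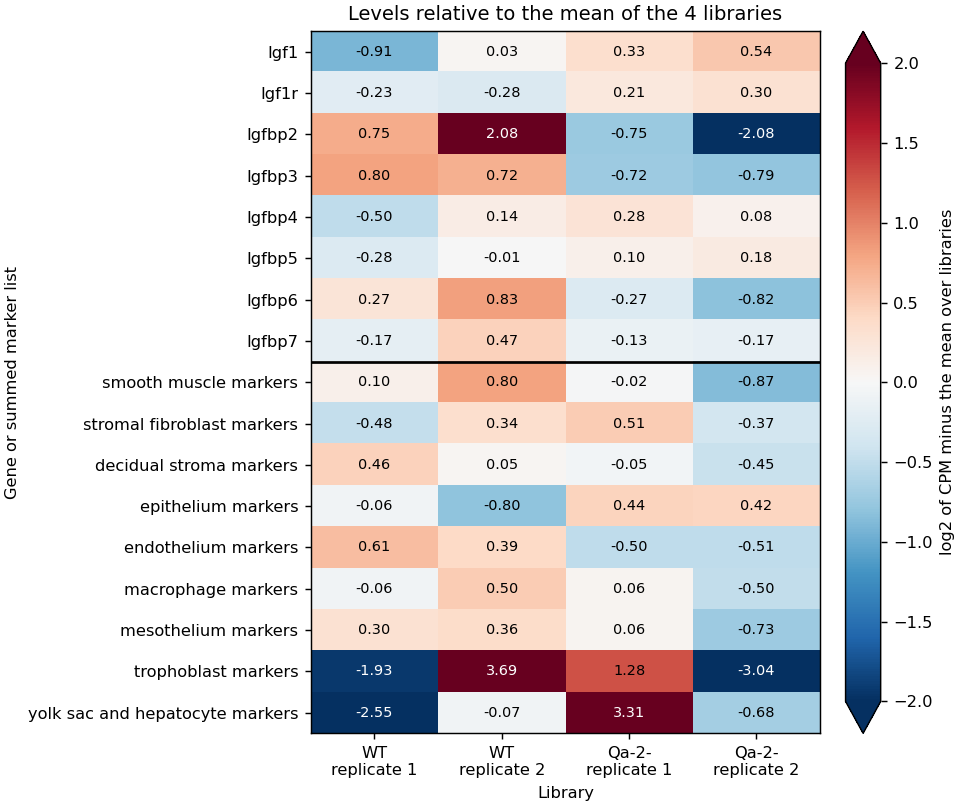
Log2 CPM of the 8 members past the filter (above the line) and of 9 summed marker lists (below the line) in each library (x axis), relative to the mean of the 4 libraries of that row. Each cell prints its value, and colours reach their end at 2 and -2. Igfbp3 and endothelium are positive in both WT and negative in both Qa-2- libraries, whereas Igfbp6 and smooth muscle are both highest in WT replicate 2 and lowest in Qa-2- replicate 2.

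Set against these sums, in pairs chosen after their values were seen, the members differed from each other. For each 100 CPM of smooth muscle markers there were 9.30 and 14.4 CPM of Igfbp2 in WT and 3.59 and 2.56 CPM in Qa-2- uteri, so that it remained without overlap and 3.85-fold higher in the WT mean. Igfbp6 gave 4.51 and 4.08 CPM in WT and 3.37 and 4.17 CPM in Qa-2- uteri on that scale, which overlapped. Igfbp3 gave 25.5 and 28.1 CPM for each 100 CPM of endothelial markers in WT and 19.2 and 18.46 CPM in Qa-2- uteri, which was 1.42-fold higher in the WT mean and without overlap. Of that list, Cdh5 had the largest difference, with 435 and 229 CPM in WT and 118 and 110 CPM in Qa-2- uteri. In the means of WT over Qa-2- Cdh5 was 2.91-fold, beside 2.85-fold for Igfbp3, so the outcome for Igfbp3 depended on the marker. Against the endothelial sum Igfbp7 stood the other way, with 56.7 and 103 CPM in WT and 126 and 123 CPM in Qa-2- uteri, without overlap and opposite to the sign of its own fold change. For each 100 CPM of mesothelial markers there were 947 and 1338 CPM of Igfbp6 in WT and 769 and 913 CPM in Qa-2- uteri, without overlap and 1.36-fold higher in the WT mean, but this sum rested mostly on Wt1 and Msln. Against Upk3b alone its ratio was 50.9 and 106 in WT and 378 and 314 in Qa-2- uteri, without overlap in the opposite direction, so the outcome for Igfbp6 depended on the list and on the marker. Igfbp2 was 4.83-fold higher in the WT mean against the mesothelial sum, but its ratio to Upk3b was 105 and 373 in WT and 402 and 193 in Qa-2- uteri, which overlapped. Against the epithelial sum Igfbp2 was 14.8-fold higher in the WT mean, without overlap. Igf1 gave 0.405 and 0.440 CPM for each 100 CPM of stromal fibroblast markers in WT and 0.482 and 1.02 CPM in Qa-2- uteri, without overlap and 0.561-fold in the means of WT over Qa-2-. This sum rested mostly on Col1a1 and Col3a1, and Col1a1 alone had 5352 and 13706 CPM in WT and 15391 and 7774 CPM in Qa-2- uteri. Against Pdgfra alone, the only marker of that list that was higher in both Qa-2- libraries, the ratio of Igf1 was 0.372 and 0.496 in WT and 0.441 and 0.525 in Qa-2- uteri, which overlapped. Igfbp4 overlapped against the stromal fibroblast list, with 1.87 and 1.65 CPM in WT and 1.61 and 2.60 CPM in Qa-2- uteri. The part of tissue content in the difference of any member was not tested.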

How the data were processed

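Whole uteri of 2 WT and 2 Qa-2- mice were sequenced as poly(A), strand-specific libraries. The deposited values are raw counts of read pairs per gene. According to the submitters' processing notes and the file headers, the authors aligned with STAR 2.7.3a to GRCm38.p6 and counted with featureCounts 2.0.0 (reverse strand, both ends mapped, mapping quality of at least 3), without normalization. Pairs with several positions were not counted, which can lower near-identical genes.

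Symbols came from GENCODE M21 for 55240 of 55421 identifiers. Level values are CPM on total counts, or these per kb of the exon length in the files. The filter asked for 1 CPM or more in 2 or more samples and kept 14492 genes. The study states this rule but 17210 genes kept, which is the number that filterByExpr, tried as an alternative, kept here. The 14492 genes were scaled by TMM and tested in edgeR 4.0.16 under R 4.3.3 (glmQLFit and glmQLFTest without a replicate block, Benjamini-Hochberg adjustment over all genes kept, threshold 0.05). The study names no test for the transcriptome. The SE is the log2 fold change divided by the square root of F. Total counts of 33286390 to 41041299 per library limit genes near the floor, and floors cover counting error only. A check for 1 library deposited under 2 labels found the libraries of each genotype apart by more than sampling noise (chi-square per gene 241 and 151), and bears on nothing else. Labels number separate uteri, which were taken as separate mice. The p-values rest on the spread between portions of these uteri, with a dispersion that also draws on all other genes.

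As alternatives, the counts were fitted with DESeq2 1.42.0, scaled by upper quartile or by totals only, filtered by filterByExpr, by a minimum of 10 counts or not at all, and fitted with a replicate block, with other quasi-likelihood settings or with 1 library left out. A crossed replicate block and the comparison of WT replicate 1 with Qa-2- replicate 2 alone were chosen after seeing the data. The latter is a difference of log2 TMM-scaled CPM without a fit or test. The fitting steps were tested on simulated counts. Members, gene lists, marker lists and motifs were chosen with earlier results of these data known. Named genes are the members, the 2 highest and 2 lowest fold changes of a pathway list, the 3 genes nearest in pattern to each member, and H2-Q6 and H2-Q7. Marker genes, genes that overlap a member and further genes of the lists (Igf2, Ins1, Igfals, Igfbpl1, Htra1, Htra3, Pdk1, Ghr and Cish) were named after their values were seen. Some genes that this rule takes are not reported here. Promoter sequences are RefSeq's on GRCm38.p6, with all 9 members matched. Proteome and other data of the study are not analysed here.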

Additional observations from a re-analysis of the deposited data

How the results depend on the processing

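No gene passed an adjusted p of 0.05 in the reported fit. DESeq2 called 404 genes in favour of WT and 296 in favour of Qa-2-, with 3 of the IGF members and 5 of the other pathway genes among them, and edgeR without a filter called 47 and 14, with 1 member (Igfbp3) and 1 pathway gene (Htra4). The cause was not tested. Leaving out 1 library gave 0 to 88 genes in favour of WT (88 without WT replicate 2, 4 without WT replicate 1) and 0 to 5 in favour of Qa-2- (5 without WT replicate 2), and no member or pathway gene among them. A group left with 1 library is then assumed to vary like the other. The log2 fold change of Igfbp4 ranged from -0.61 to 0.040 and turned its sign without WT replicate 1. The sum of the Igfbp genes over Igf1 was 85.6 in WT and 20.6 in Qa-2- with CPM in place of CPM per kb, which the change of unit brings about by construction.

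Same-numbered libraries did not deviate together (correlation of deviations from the group means across genes -0.40), and no pairing of mice is described. With 2 libraries a group, libraries with different numbers have the opposite correlation by construction. With the replicate number as a block, 2 genes were called in favour of WT and 0 in favour of Qa-2-, with no member among them. With the crossed replicate block, chosen after seeing the data, 0 genes were called, and Igfbp2 and Igfbp3 had an edgeR adjusted p of 0.069. At an unadjusted p under 0.05 that fit had 3625 genes, against 2199 in the reported fit. All other alternatives kept the direction and the call of each member, with Igf1 between -0.80 and -0.69, Igfbp3 between 1.51 and 1.62 and Igfbp2 between 2.82 and 2.93 on the log2 scale when all libraries were used. With 2 mice per genotype, the exact permutation test used for single values cannot go below 0.33, and Igfbp1 and Igf2 were too low for a fold change at this depth.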

Other observations

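For each member, the 3 genes with the nearest pattern over the 4 libraries were looked up among 10063 genes with a mean of at least 10 CPM, by the Euclidean distance of log2 CPM centred on each gene's mean. Each point of a pattern is 1 library, so that all genes share its depth and tissue content, and nearness is a description only.

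Igfbp2 had no close neighbour, since its nearest genes lay at distances of 0.74 to 0.80. They were Uchl1, a ubiquitin hydrolase gene of neurons and other cells, and the haemoglobin genes Hbb-bt and Hba-a1. Hba-a1 had 73.1 and 202 CPM in WT and 34.8 and 20.3 CPM in Qa-2- uteri, and Hbb-bt had 17.2 and 43.6 CPM in WT and 6.47 and 3.82 CPM in Qa-2- uteri. Both were thus highest in WT replicate 2 and lowest in Qa-2- replicate 2, as Igfbp2 was, and the part of blood content in the values of Igfbp2 was not tested.

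Igfbp3 was nearest to Tbx1 (distance 0.11), a transcription factor gene, and to Id1, a well-known target of BMP signalling. Id1 had 56.2 and 53.4 CPM in WT and 19.0 and 20.8 CPM in Qa-2- uteri. The third was Acer2, which encodes a ceramidase. Igfbp6 was nearest to Dio3, the gene of the deiodinase that inactivates thyroid hormone, with 141 and 189 CPM in WT and 92.0 and 58.9 CPM in Qa-2- uteri. It was followed by Tagln, a smooth muscle gene that is also in the marker list, and by Cdh3.

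Igf1 was nearest to Pcp4, Ptprs and Ephb2, at distances of 0.08 to 0.11. Ephb2, an ephrin receptor gene, had 16.0 and 33.0 CPM in WT and 38.0 and 48.6 CPM in Qa-2- uteri. Igf1r lay within 0.04 of Cep250, Cep350 and Ascc3, Igfbp4 of Dchs1, Tnrc18 and Mmp19 (at most 0.0413), and Igfbp5 of Gmeb1 and Pitpnm2 (at most 0.0252). Igfbp7 was nearest to Fermt3 and Csf2rb, which are expressed in blood cells, and to Ldhb, all of which had their highest value in WT replicate 2.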
